A study of Arabidopsis thaliana with 12 samples.

Results

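The neighbourhood described here is a run of genes on chromosome 4 of Arabidopsis thaliana, AT4G16510 to AT4G17720, with a middle stretch, AT4G16800 to AT4G17486, where signals were higher in SPH1 RNAi leaves than in Col-0 leaves. Its members are all probe sets that the array's gene list pairs with exactly 1 gene of this range and whose mean signal over the 12 arrays was at least 32. These are 53 probe sets for 50 genes, out of 13263 probe sets of that signal on the array. The middle stretch, called the raised stretch below, holds 32 probe sets for 29 genes. The lower flank, AT4G16510 to AT4G16790, holds 12 genes, and the upper flank, AT4G17520 to AT4G17720, holds 9. The limits of the stretch were drawn from the genotype differences on these same arrays, so those differences are described below with no test. Changes between growth stages within a genotype were not used to draw the limits and were tested. The difference of those changes between genotypes was tested too. It equals the change of the genotype difference between stages. It is thus computed from the differences that set the limits, and its test is not independent of that choice.

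Affymetrix ATH1 arrays were used to measure rosette leaf RNA, with 3 arrays for each of 4 groups and 40 plants pooled per array. The groups were SPH1 RNAi at growth stage 1.14, Col-0 at stage 1.14, SPH1 RNAi at stage 1.05 and Col-0 at stage 1.05. All plants were of the Col-0 ecotype and grew under glass with 16 h of light at 20 °C and 80% humidity, on compost that had received Intersept in every group. SPH1 RNAi plants carry an RNA interference construct against SPH1, while the labels of Col-0 plants name no modification. The labels state neither the promoter of the construct nor the number of transformed lines. The stage numbers count rosette leaves on the usual Arabidopsis growth scale, so stage 1.14 is the later stage.

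Neighbouring genes on a plant chromosome mostly have unrelated functions, except where local duplication has made a cluster of relatives. The raised stretch contains the RPP5 locus, a well known cluster of this kind. Its genes encode immune receptors with a TIR domain, a nucleotide-binding domain and leucine-rich repeats, among them RPP4, SNC1 and RPP5, and they are known to be regulated together. Other genes of the neighbourhood encode, among others, ribosomal proteins, enzymes of intermediary metabolism, protein folding factors and RNA-binding proteins.

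SPH1 itself, AT4G16295, lies on the same chromosome, and the array's gene list pairs no probe set with it, so its own level could not be followed. In the TAIR10.1 gene order, 28 annotated genes lie between SPH1 and AT4G16510, and 72 lie between SPH1 and AT4G16800. Those 28 genes have 8 probe sets of sufficient signal, with a median log2 difference between SPH1 RNAi and Col-0 of 0.05 at stage 1.14 and -0.03 at stage 1.05. For 0 of these 8 did the SPH1 RNAi arrays lie above the Col-0 arrays at both stages, against a background of 3.33% of all probe sets tested. At stage 1.14 alone they lay above for 3 of the 8, AT4G16340, AT4G16447 and AT4G16450, against a background of 17.9%, and at stage 1.05 alone for 0 of the 8, against 15.9%.

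The annotation lists 155 genes in the neighbourhood, of which 144 are protein coding. The array's list gives 79 probe sets for 76 of them, and 26 of these probe sets fell below the mean signal of 32. A further 4 genes have only probe sets shared with other genes, and for the other 75 the list gives no probe set. The member just inside the threshold was AT4G17580, with a mean signal of 32.02, and the probe set just outside it was that of AT4G16670, with 31.59. In the raised stretch the array thus reported at this level on 29 of 82 annotated genes.

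Among the 12 arrays, SPH1 RNAi stage 1.14 replicate 1 stood apart from its group. Over all probe sets tested it correlated with the other 2 arrays at 0.894 and 0.904, against 0.969 between those 2, which are titled as repeats. Replicate 3 of that group lacks the tag for the RNAi construct and was placed by its source name. Of the leaf, root, flower, seed and salicylate marker lists, the gene list offered 1 leaf gene and 1 root gene. RCA, which activates Rubisco, lay between 2797.8 and 5230.0 on the 12 arrays. PYK10, a root beta-glucosidase, had 355.2, 39.4 and 61.3 in SPH1 RNAi at stage 1.14, against 21.4, 16.3 and 14.2 in Col-0. At stage 1.05 it had 530.6, 288.4 and 382.2 in SPH1 RNAi, against 568.4, 339.4 and 468.5 in Col-0. The part of these differences in the values below was not tested.

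Across the raised stretch, signals were higher in SPH1 RNAi leaves than in Col-0 leaves at both stages. The median log2 difference of its 32 probe sets was 0.49 at stage 1.14, with a range of -0.17 to 1.83, and 0.55 at stage 1.05, with a range of -0.18 to 1.51. Averaged over the stages, the median was 0.57, or 1.49-fold. These are differences of log2(signal + 16), which understate the change of dim probe sets. For comparison, the median over all 13263 probe sets was 0.04 at each stage. In leaf RNA of this kind, more RNA per cell and more cells that express a gene cannot be told apart.

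The difference was above 0 for 30 of 32 probe sets at each stage, where the background over all probe sets was 55% at stage 1.14 and 55.5% at stage 1.05. At stage 1.14, all 3 SPH1 RNAi arrays lay above all 3 Col-0 arrays for 22 probe sets, against a background of 17.9%. At stage 1.05 this held for 19 probe sets, against a background of 15.9%. It held at both stages for 16 probe sets, or 50.0%, while the background was 3.33%. For 0 of the 32 did the SPH1 RNAi arrays lie wholly below the Col-0 arrays at either stage, against a background of 10.3% at stage 1.14 and 11.7% at stage 1.05. As the stretch was chosen on these differences, the counts describe it and are no independent evidence of its shift. The filter on mean signal also let in dim members through their higher SPH1 RNAi arrays. In Col-0, AT4G17010 had means of 23.7 at stage 1.14 and 31.47 at stage 1.05, and AT4G17020 had 30.27 and 28.23. The Col-0 means of AT4G16970 were 10.67 and 33.7, and those of AT4G17150 were 39.7 and 8.23. Apart from AT4G17020, these genes are among the 16.

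**Figure D1:**
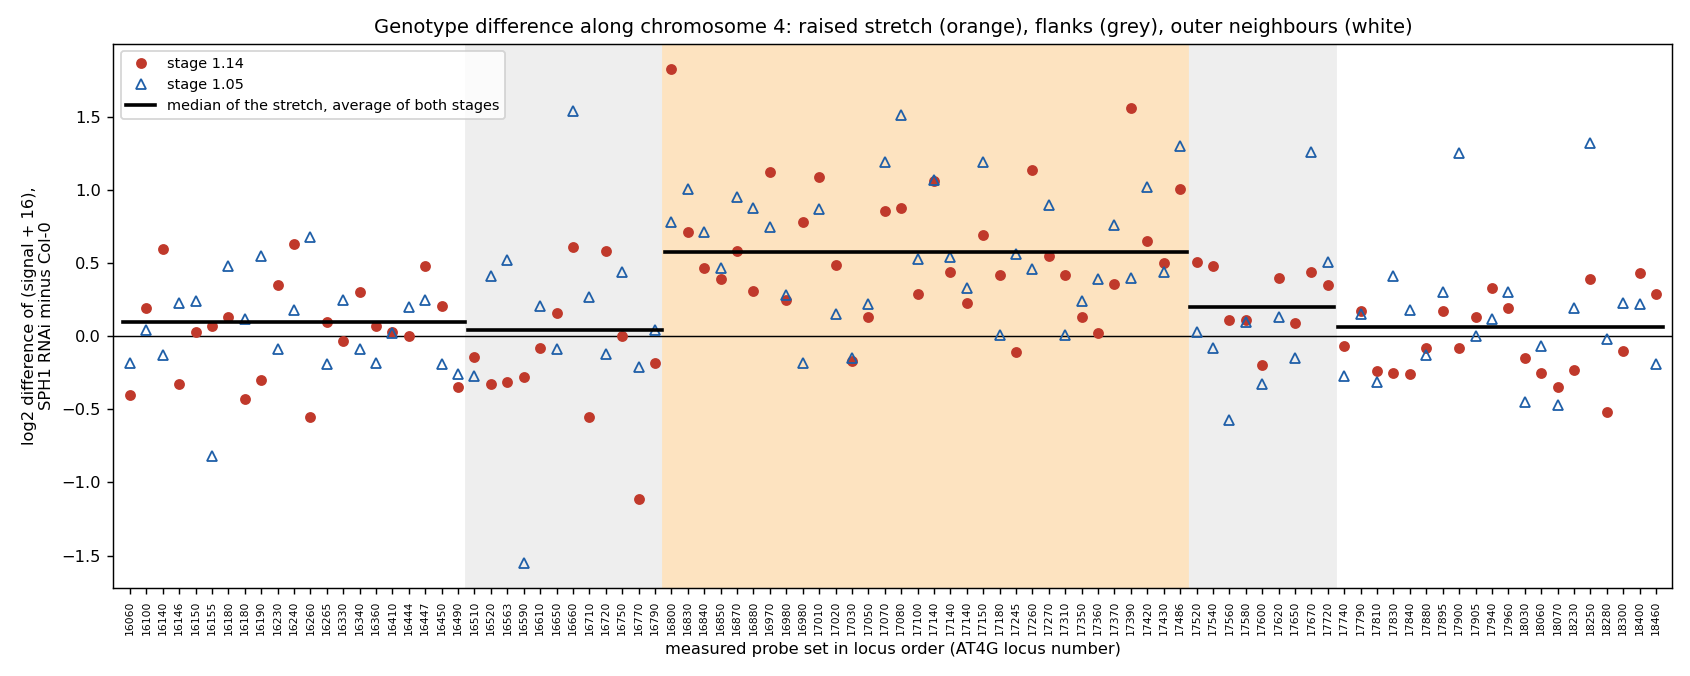
Log2 difference of (signal + 16) between SPH1 RNAi and Col-0, on the vertical axis, for each measured probe set in locus order, at stage 1.14 (filled circles) and stage 1.05 (open triangles), with the 20 measured genes on either side and black lines for the median of each section over both stages. The raised stretch (orange) has a median of 0.57, against 0.04 in the lower and 0.20 in the upper flank (grey).

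In the flanks the differences were of either sign, and the upper flank at stage 1.14 came nearest to the stretch. The lower flank had a median log2 difference of -0.16 at stage 1.14 and 0.12 at stage 1.05, and the upper flank one of 0.35 and 0.03. Over the 21 flank probe sets together the medians were 0.09 and 0.04. SPH1 RNAi arrays lay above Col-0 arrays at both stages for 1 of the 21, AT4G17720, which is 4.76%, against a background of 3.33%. At a given stage they lay above for 5 of the 21, at stage 1.14 as at stage 1.05, against backgrounds of 17.9% and 15.9%. Of the 5 at stage 1.14, 4 were in the upper flank, where 8 of 9 differences were above 0, against a background of 55%. Farther out, the 20 measured genes before AT4G16510, with 21 probe sets, had medians of 0.07 and 0.04, and the 20 genes after AT4G17720 had medians of -0.08 and 0.13.

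Each SPH1 RNAi array showed the shift of the stretch, which was chosen on these same arrays, so this describes it only. Each Col-0 array is compared with a mean of which it is part, which keeps its value near 0. Set against the Col-0 mean of the same stage, the median log2 shift over the 32 probe sets was 0.53, 0.56 and 0.53 on the SPH1 RNAi arrays of stage 1.14, against 0.01, 0.07 and -0.02 on the Col-0 arrays. The values at stage 1.05 were 0.46, 0.64 and 0.60 on the SPH1 RNAi arrays, against 0.01, -0.03 and 0.04 on the Col-0 arrays. The array that stood apart, replicate 1 of SPH1 RNAi at stage 1.14, had a median shift like those of its companions, with 25 of 32 probe sets above the Col-0 mean, against 31 and 30 on the other 2. Without it the median difference at stage 1.14 was 0.59, and the remaining SPH1 RNAi arrays lay above the Col-0 arrays for 28 of 32 probe sets, against a background of 24.7% with those same arrays. This alternative was chosen after seeing the data, and with fewer arrays groups overlap less often for any probe set. For the flanks the SPH1 RNAi arrays had -0.14, 0.09 and 0.13 at stage 1.14, and 0.05, 0.11 and 0.06 at stage 1.05.

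**Figure D2:**
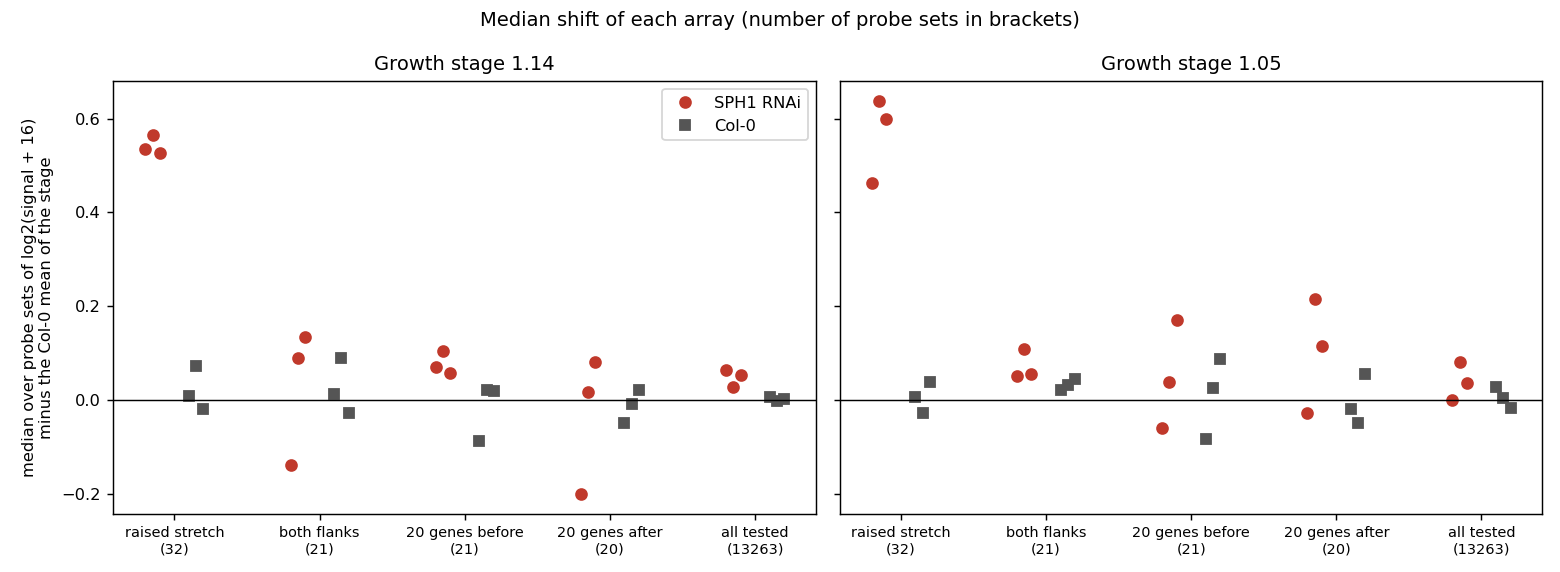
Median shift in log2(signal + 16) from the Col-0 mean of the same stage, on the vertical axis, with 1 point per array, for the raised stretch, the flanks, the outer neighbours and all probe sets tested, at stage 1.14 and stage 1.05. In the raised stretch the 6 SPH1 RNAi arrays lie between 0.46 and 0.64 and the 6 Col-0 arrays between -0.03 and 0.07. The stretch was chosen on these arrays, and each Col-0 array is part of the mean it is compared with.

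In linear signal, the ratio of the SPH1 RNAi mean to the Col-0 mean had a median of 1.52 at stage 1.14, with quartiles of 1.32 and 2.00. It was at least 2 for 8 probe sets, from 1.5 to 2 for 10, from 1 to 1.5 for 12 and below 1 for 2. At stage 1.05 the median ratio was 1.65, with quartiles of 1.31 and 2.24, and the 4 classes held 10, 9, 11 and 2 probe sets. The flanks had median ratios of 1.07 at stage 1.14 and 1.05 at stage 1.05, and 0 and 2 of their 21 probe sets reached a ratio of 2. The share of each class over all probe sets is not given here. As the stretch was chosen on such differences, its classes only describe it. Across the 32 probe sets of the stretch, the differences at the 2 stages correlated at r = 0.42 and rho = 0.50, a description of points that share the same arrays within each stage. Most probe sets of the stretch shared a direction, which the choice of its limits favoured, while their sizes at the 2 stages were ordered alike only in part.

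At the lower edge of the raised stretch lies AT4G16800, of the enoyl-CoA hydratase family, whose members act in fatty acid or branched-chain amino acid breakdown. Its signal was 155.7, 280.7 and 279.5 in SPH1 RNAi at stage 1.14, against 47.9, 42.3 and 74.7 in Col-0. Its signal at stage 1.05 was 113.5, 163.6 and 154.9 in SPH1 RNAi, against 81.4, 79.8 and 68.5 in Col-0. The groups did not overlap at either stage, and the log2 difference was 1.83 ± 0.23 (SE, n = 3 each) at stage 1.14 and 0.78 ± 0.23 at stage 1.05. Its average difference of 1.30 was the largest among the 32 probe sets of the stretch.

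The next measured gene inward, AT4G16830, encodes a hyaluronan and mRNA-binding family protein. It gave 880.9, 743.9 and 703.5 in SPH1 RNAi at stage 1.14, against 407.4, 547.7 and 457.3 in Col-0. At stage 1.05 it gave 691.7, 723.1 and 672.9 in SPH1 RNAi, against 311.9, 348.6 and 350.2 in Col-0. Every SPH1 RNAi value lay above every Col-0 value here, over both stages, and the differences were 0.71 ± 0.15 and 1.01 ± 0.15. AT4G16790, the hydroxyproline-rich glycoprotein gene just outside this edge, showed no such separation. It had 30.1, 47.6 and 45.5 in SPH1 RNAi at stage 1.14, against 32.6, 74.2 and 43.2 in Col-0. At stage 1.05 its values were 23.4, 32.4 and 35.3 in SPH1 RNAi, against 30.2, 32 and 24.8 in Col-0.

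At the upper edge lies AT4G17486, of the PPPDE family of putative thiol peptidases. Its signal was 375.2, 194.8 and 233.2 in SPH1 RNAi at stage 1.14, against 121.4, 109.1 and 131.1 in Col-0. The values at stage 1.05 were 200.1, 280.3 and 232.6 in SPH1 RNAi, against 100.3, 78.0 and 81.9 in Col-0. The groups were fully apart at both stages, with differences of 1.01 ± 0.21 and 1.30 ± 0.21. AT4G17430, an O-fucosyltransferase family gene and the member before it, had 93.8, 99.2 and 82.1 in SPH1 RNAi at stage 1.14, against 56.1, 71.7 and 53.8 in Col-0. It had 80.8, 97.7 and 100.7 in SPH1 RNAi at stage 1.05, against 71.5, 56.8 and 65.4 in Col-0. Its difference was smaller, 0.50 ± 0.14 and 0.44 ± 0.14, and again without overlap.

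Just beyond this edge, AT4G17520, a hyaluronan and mRNA-binding family gene like AT4G16830, separated at the later stage only. It had 211.8, 186.0 and 249.8 in SPH1 RNAi at stage 1.14, against 147.7, 134.3 and 157.6 in Col-0. At stage 1.05 the groups overlapped, with 357.7, 253.3 and 289.8 in SPH1 RNAi, against 295.7, 381.7 and 218.9 in Col-0. Its differences were 0.51 ± 0.20 and 0.03 ± 0.20. The next flank member, AT4G17540, had the same form, with 0.48 ± 0.18 and -0.08 ± 0.18.

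Members of the stretch with a role in protein folding, protein turnover or gene expression included several of the largest differences. AT4G17070 encodes a peptidyl-prolyl isomerase, an enzyme class that helps proteins fold. It had 239.7, 205.3 and 201.8 in SPH1 RNAi at stage 1.14, against 129.9, 88.9 and 120.0 in Col-0, and 168.5, 213.4 and 174.8 in SPH1 RNAi at stage 1.05, against 66.6, 75.5 and 74.1 in Col-0. All 6 SPH1 RNAi values lay above all 6 Col-0 values, and the differences were 0.86 ± 0.15 and 1.19 ± 0.15. AT4G17080, which encodes a protein with MORN repeats of the histone methyltransferase SET7/9 family, had 275.5, 213.4 and 205.4 in SPH1 RNAi at stage 1.14, against 132.5, 94.5 and 129.7 in Col-0. Its signal at stage 1.05 was 209.8, 216.9 and 160.7 in SPH1 RNAi, against 68.5, 59.2 and 47.4 in Col-0. Its average difference of 1.19 ± 0.12 came next after that of AT4G16800.

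Other members of these classes differed less. AT4G17420, a tryptophan RNA-binding attenuator-like protein, differed by 0.65 ± 0.16 at stage 1.14 and 1.02 ± 0.16 at stage 1.05, without overlap. AT4G17020, a subunit of the transcription factor TFIIH, differed by 0.49 ± 0.15 and 0.15 ± 0.15 and was apart at stage 1.14 only. AT4G17100, a poly(U)-specific endoribonuclease family gene, differed by 0.29 ± 0.24 and 0.53 ± 0.24 and was apart at stage 1.05 only. Without SPH1 RNAi stage 1.14 replicate 1, AT4G17100 was apart at stage 1.14 too, with 0.53. AT4G17245, of the RING/U-box family of ubiquitin ligases, overlapped at both stages, with -0.11 ± 0.35 and 0.56 ± 0.35.

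RPL15B, AT4G17390, among the brightest members, encodes ribosomal protein L15 of the large cytosolic subunit. Its signal was 2085.9, 1768.2 and 1607.0 in SPH1 RNAi at stage 1.14, against 619.8, 468.9 and 756.3 in Col-0. At stage 1.05 it was 2705.7, 2702.6 and 2472.7 in SPH1 RNAi, against 1965.8, 2123.0 and 1891.4 in Col-0. The groups were apart at both stages, by 1.56 ± 0.17 at stage 1.14 and 0.40 ± 0.17 at stage 1.05. RPL15A, AT4G16720, its near-identical paralogue in the lower flank, had 1567.8, 1342.2 and 1377.4 in SPH1 RNAi at stage 1.14, against 1054.7, 768.6 and 1046.5 in Col-0. The values at stage 1.05 were 1987.2, 1758.9 and 1843.9 in SPH1 RNAi, against 1992.9, 2075.1 and 2022.0 in Col-0. RPL15A was thus higher in SPH1 RNAi at stage 1.14, by 0.58 ± 0.15, and its arrays lay wholly below those of Col-0 at stage 1.05, with -0.12 ± 0.15. How far the probes of these relatives pick up each other's transcript is not known here, so their separate levels are uncertain.

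**Figure D3:**
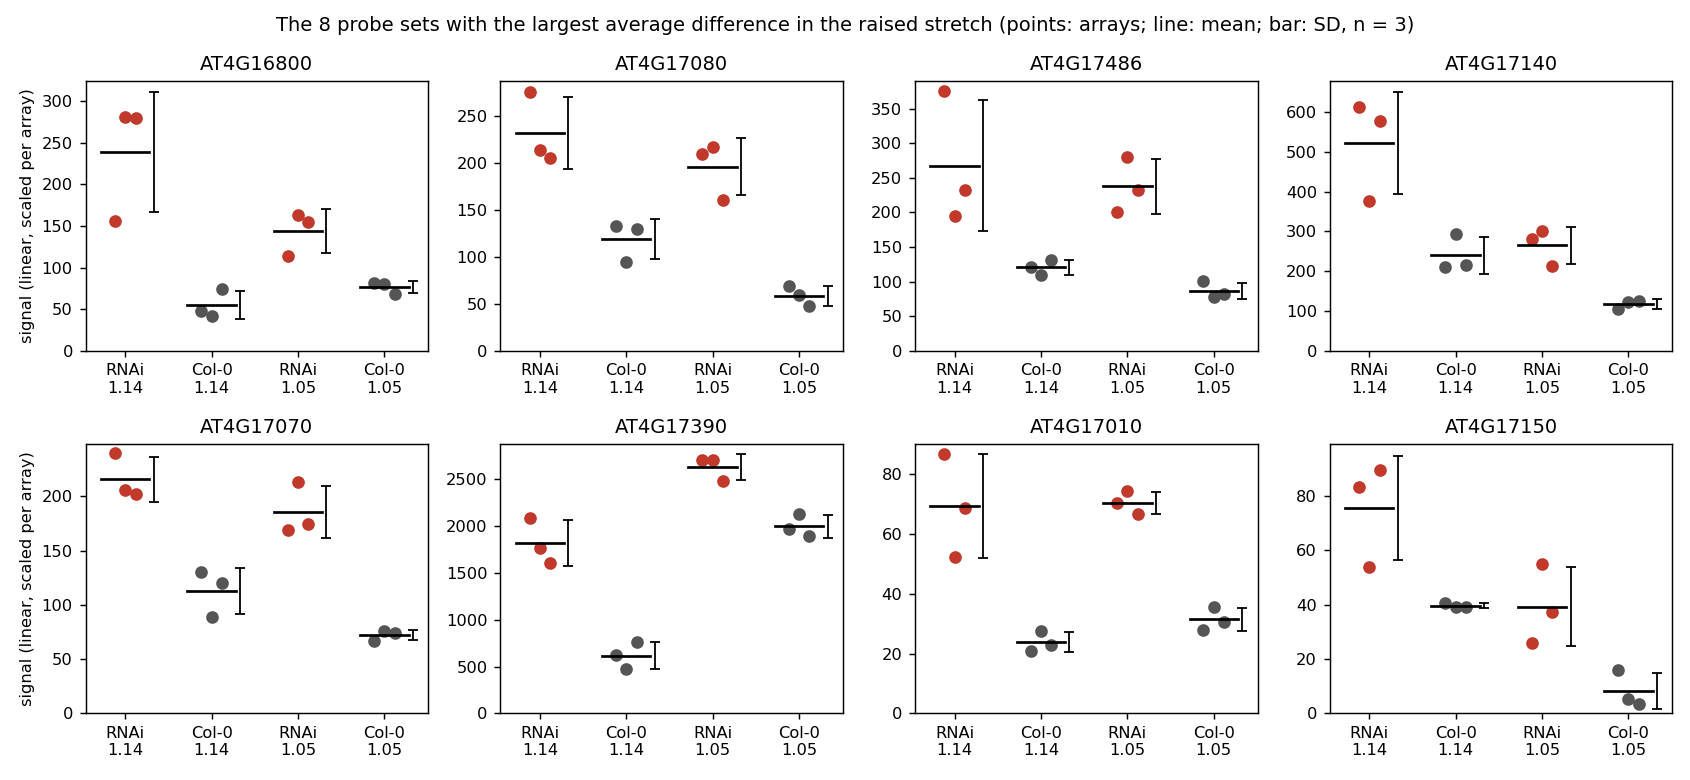
Linear signal, on the vertical axes, of the 8 probe sets of the raised stretch with the largest average difference, with 1 point per array for SPH1 RNAi and Col-0 at stages 1.14 and 1.05, a line for the mean and a bar for the SD (n = 3). In each panel the 3 SPH1 RNAi arrays lie above the 3 Col-0 arrays at both stages.

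Of the enzymes and transport genes, AT4G17150, of the alpha/beta hydrolase superfamily, had the largest linear ratio at stage 1.05, 4.78, from low signals. It had 83.3, 53.7 and 89.4 in SPH1 RNAi at stage 1.14, against 40.6, 39.3 and 39.2 in Col-0. Its signal at stage 1.05 was 25.8, 54.8 and 37.3 in SPH1 RNAi, against 15.9, 5.4 and 3.4 in Col-0, so the Col-0 values there were among the dimmest of any member. The groups did not overlap, and the differences on the log2(signal + 16) scale were 0.69 ± 0.23 and 1.19 ± 0.23. AT4G17010, for which no role is given here, had 86.8, 52.2 and 68.7 in SPH1 RNAi at stage 1.14, against 20.9, 27.4 and 22.8 in Col-0. At stage 1.05 it had 70.2, 74.2 and 66.8 in SPH1 RNAi, against 28, 35.7 and 30.7 in Col-0. Its arrays were well apart at both stages, with differences of 1.09 ± 0.15 and 0.87 ± 0.15.

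AT4G17140, a member of the VPS13 family of large lipid transfer proteins, is covered by 3 probe sets, which differed in level and in the size of the difference. Probe set 245433_at had 613.2, 375.8 and 578.7 in SPH1 RNAi at stage 1.14, against 209.9, 294.1 and 214.5 in Col-0, and 281.3, 302.1 and 213.5 in SPH1 RNAi at stage 1.05, against 103.9, 122.9 and 125.7 in Col-0. It differed by 1.06 ± 0.21 at stage 1.14 and 1.07 ± 0.21 at stage 1.05, without overlap. The dimmer 245434_at differed by 0.44 ± 0.18 and 0.54 ± 0.18 and overlapped at stage 1.05. The dimmest, 245435_at, differed by 0.23 ± 0.19 and 0.33 ± 0.19 and overlapped at both stages. All 3 had the same direction, and as they share a gene they are not separate evidence.

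Among the metabolic enzymes with smaller or less even differences was AT4G17260, a lactate dehydrogenase, which reduces pyruvate when oxygen is short. It had 379.2, 216.4 and 123.2 in SPH1 RNAi at stage 1.14, against 82.7, 99.6 and 89.6 in Col-0, and its difference of 1.14 ± 0.30 became 0.76 without the first of these arrays. Its difference at stage 1.05 was 0.46 ± 0.30, with overlap. AT4G17360, a formyltetrahydrofolate deformylase that acts in the folate metabolism of photorespiration, differed by 0.02 ± 0.25 and 0.39 ± 0.25 and was apart at stage 1.05 only. AT4G17370, of an oxidoreductase family, was likewise apart at stage 1.05 only, with 0.36 ± 0.19 and 0.76 ± 0.19. Without SPH1 RNAi stage 1.14 replicate 1, AT4G17360 was apart at stage 1.14 too, with 0.38, as was AT4G17370, with 0.55. AT4G17180, a glycosyl hydrolase of family 17, was apart at stage 1.14 only, with 0.42 ± 0.14 and 0.01 ± 0.14. UGLYAH, AT4G17050, an enzyme of ureide breakdown, overlapped at both stages, with 0.13 ± 0.16, or 0.24 and no overlap without that array, and 0.22 ± 0.16.

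Signalling and cell wall genes were also among the members. AT4G16970, of the protein kinase superfamily, had 58.3, 19.5 and 51.4 in SPH1 RNAi at stage 1.14, against 3.8, 19.0 and 9.2 in Col-0. The values at stage 1.05 were 51.5, 93.6 and 56.0 in SPH1 RNAi, against 43.3, 39.6 and 18.2 in Col-0. It counted as apart at both stages, at stage 1.14 by the narrow gap between 19.5 and 19.0. AT4G17270, of the Mo25 family of kinase scaffold proteins, was apart at both stages with 0.55 ± 0.16 and 0.90 ± 0.16. AT4G17350, a pleckstrin homology domain gene, overlapped at both, with 0.13 ± 0.20 and 0.24 ± 0.20. EXLB1, AT4G17030, an expansin-like gene of the cell wall, was the member of the stretch whose difference was below 0 at both stages. It had -0.17 ± 0.21 at stage 1.14, or 0.02 without SPH1 RNAi replicate 1, and -0.15 ± 0.21 at stage 1.05, with overlap.

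AT4G16980, of the arabinogalactan-protein family, has 2 probe sets of very unequal brightness. The brighter, 245318_at, was the brightest of the stretch and overlapped at both stages, with 832.7, 2646.5 and 1693.2 in SPH1 RNAi at stage 1.14, against 1297.0, 1114.1 and 1536.7 in Col-0. Its differences were 0.25 ± 0.31 and 0.28 ± 0.31, and without replicate 1 of SPH1 RNAi at stage 1.14 the first became 0.69 with no overlap. The dimmer, 245459_at, differed by 0.78 ± 0.31 at stage 1.14 without overlap and by -0.18 ± 0.31 at stage 1.05 with overlap. The value at stage 1.05 rested on Col-0 replicate 1, at 82.1 against 23.7 and 32.1 in the other 2, and was 0.21 without it.

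Of the remaining members, AT4G16840 and AT4G16850, for which no role is given here, were apart at both stages. AT4G16840 differed by 0.47 ± 0.14 and 0.71 ± 0.14, and AT4G16850 by 0.39 ± 0.14 and 0.47 ± 0.14. AT4G16870, annotated as a pseudogene, was also apart at both, with 0.58 ± 0.28 and 0.95 ± 0.28. AT4G17310, again with no role given, was apart at stage 1.14 only, with 0.42 ± 0.18 and 0.01 ± 0.18. The raised set thus ran across ribosomal, folding, RNA-binding, metabolic and signalling genes, and was interrupted along the map by members that overlapped between genotypes.

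For the immune receptors of the RPP5 locus the array gave little. Of 9 listed genes, 1 is a member, AT4G16880, a leucine-rich repeat gene of the cluster. Its signal was 45.2, 162.2 and 124.1 in SPH1 RNAi at stage 1.14, against 66.8, 100.4 and 67.0 in Col-0, and 38.4, 101.1 and 88.0 in SPH1 RNAi at stage 1.05, against 42.9, 25.3 and 27.8 in Col-0. The groups overlapped at both stages, with replicate 1 the low SPH1 RNAi array each time, and the differences were 0.31 ± 0.37 and 0.88 ± 0.37. Without replicate 1 of SPH1 RNAi at the same stage they were 0.77 at stage 1.14 and 1.22 at stage 1.05, and the groups no longer overlapped.

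Other genes of that locus were seen only outside the membership rule. AT4G16940 and AT4G16960 share a probe set, 245457_s_at, which cannot tell them apart. It had 79.3, 83.0 and 71.1 in SPH1 RNAi at stage 1.14, against 41.8, 51.0 and 44.1 in Col-0, and 36.6, 26.8 and 34.1 in SPH1 RNAi at stage 1.05, against 21.1, 17.9 and 21.3 in Col-0, with no overlap at either stage. AT4G16900 and AT4G16920 have probe sets below a mean of 32. AT4G16900 had 16.3, 9.7 and 16.2 in SPH1 RNAi at stage 1.14, against 4.9, 4.2 and 1.7 in Col-0. It overlapped at stage 1.05, with 12.6, 14.4 and 0.9 in SPH1 RNAi, against 1.1, 1.5 and 1.2 in Col-0. AT4G16920 was apart at both stages and had 24.0, 19.8 and 44.1 in SPH1 RNAi at stage 1.14, against 9.2, 11.4 and 13.3 in Col-0. Its signal at stage 1.05 was 16.0, 18.4 and 16.3 in SPH1 RNAi, against 10.9, 13.9 and 6.5 in Col-0. For the other 4 genes, RPP4, SNC1 and RPP5 among them, the list gives no probe set. The same was true of the ERF transcription factor genes AT4G17490 and AT4G17500, which were listed beforehand. AT4G16750, of the wider AP2/ERF family, was not on that list and is a member of the lower flank, described below.

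The stretch also has 14 dim probe sets, with mean signals of 1.47 to 26.1. Their mean was higher in SPH1 RNAi than in Col-0 for 14 of 14 at stage 1.14, where the share over all 9483 probe sets below the threshold was 69.1%, and for 11 at stage 1.05, where it was 51%. For 4 of them the SPH1 RNAi arrays lay above the Col-0 arrays at both stages, against 1.3% of all dim probe sets. In the flanks the mean was higher in SPH1 RNAi for 9 of 12 dim probe sets at stage 1.14 and for 7 at stage 1.05, with 1 above at both stages. At such signals a level is close to the noise of the array.

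The flanks held members that differed strongly in either direction. AT4G16660, an HSP70 family chaperone, had 124.2, 212.4 and 241.9 in SPH1 RNAi at stage 1.14, against 78.9, 168.6 and 117.6 in Col-0, and 168.4, 373.4 and 330.6 in SPH1 RNAi at stage 1.05, against 115.0, 110.4 and 44.5 in Col-0. It was apart at stage 1.05 only, or at both without SPH1 RNAi stage 1.14 replicate 1, and its average difference was 1.08 ± 0.26. AT4G17670, of the FLZ family of zinc finger proteins, averaged 0.85 ± 0.16, mostly from stage 1.05. AT4G17720, an RNA-binding protein with an RNA recognition motif at the far end of the upper flank, averaged 0.43 ± 0.11.

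In the other direction, CSLA01, AT4G16590, a cellulose synthase-like gene of the mannan synthase family, averaged -0.91 ± 0.17. It had 27.8, 39.4 and 35.9 in SPH1 RNAi at stage 1.05, against 102.2, 119.3 and 179.9 in Col-0. At stage 1.14 the groups overlapped, with 17.2, 29.2 and 32.4 in SPH1 RNAi, against 20.2, 46.0 and 41.7 in Col-0. AT4G16770, of the family of oxygenases that use 2-oxoglutarate and iron, had 109.3, 85.9 and 81.7 in SPH1 RNAi at stage 1.14, against 225.1, 198.9 and 225.2 in Col-0, and averaged -0.66 ± 0.13. This gene lies in the flank 2 members before AT4G16800, so strong differences of opposite sign stood close together at the lower edge. LIL3:1, AT4G17600, a light-harvesting-like protein of chlorophyll synthesis, averaged -0.26 ± 0.16. In the flanks, SPH1 RNAi arrays lay wholly below Col-0 arrays for 4 of 21 members at stage 1.14, against a background of 10.3%. All 4 were among the 12 of the lower flank. At stage 1.05 this held for 3 of 21, against 11.7%, with 2 in the lower and 1 in the upper flank.

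Of the flank members next to the edges, 3 are not yet described. AT4G16750, of the AP2/ERF family of transcription factors, averaged 0.22 ± 0.20. AT4G17560, a ribosomal protein of the plastid-type L19 family, had 0.11 ± 0.19 at stage 1.14, with overlap, and -0.57 ± 0.19 at stage 1.05, with every SPH1 RNAi array below every Col-0 array. AT4G17580, of the Bax inhibitor-1 family, averaged 0.10 ± 0.13. The other 8 flank genes lay between -0.20 and 0.26 averaged over the stages. In 3 of them, named here after their values were seen, it joins differences of opposite sign with the groups apart at stage 1.14. ATG8F was below Col-0 without overlap at stage 1.14, with -0.33 ± 0.14, and above it at stage 1.05, with 0.41 ± 0.14. AT4G16710 was likewise below at stage 1.14, with -0.55 ± 0.19, and above at stage 1.05, with 0.27 ± 0.19. AT4G16563 was below at stage 1.14, with -0.31 ± 0.20, and overlapped at stage 1.05, with 0.52 ± 0.20. A further gene of the 8, AT4G17620, was above Col-0 without overlap at stage 1.14, with 0.40 ± 0.14, and overlapped at stage 1.05, with 0.13 ± 0.14. The 8 genes are AT4G16510 with a YbaK domain, the autophagy gene ATG8F, the aspartyl protease gene AT4G16563, the C2H2 zinc finger gene AT4G16610, the O-fucosyltransferase gene AT4G16650, the glycosyltransferase gene AT4G16710, DXO1, AT4G17620, which removes faulty caps from mRNA ends, and AT4G17650 of the polyketide cyclase family.

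In Col-0, 23 of the 53 probe sets passed the limma test between stages 1.14 and 1.05 (Benjamini-Hochberg adjusted p below 0.05), 14 of them higher and 9 lower at stage 1.14. That is 43.4%, close to the background of 44.6% over all probe sets tested, where 23.7% rose and 21% fell. The stretch held 12 of the 23, of which 9 rose and 3 fell, and the flanks held 11, of which 5 rose and 6 fell. In SPH1 RNAi, 4 of 53 passed, or 7.55%, and all 4 rose, against a background of 10.2% in both directions and 5.78% that rose. An unadjusted limma p below 0.05 was found for 18 of the 53, against 3730 of all 13263 probe sets. Without SPH1 RNAi stage 1.14 replicate 1 or without replicate 2, 7 members passed in SPH1 RNAi, and the share over all probe sets in those fits is not given here. With all arrays, the shares in the neighbourhood were thus near those of the array as a whole in both genotypes. These p-values reflect the spread between the pools of plants within a group.

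The strongest later-stage gain in both genotypes was that of AT4G17100, the endoribonuclease family gene. It had 209.5, 426.8 and 304.0 in SPH1 RNAi at stage 1.14, against 68.6, 114.0 and 101.5 at stage 1.05, and rose by 1.54 ± 0.24 (limma adjusted p = 0.0028). In Col-0 it had 253.8, 298.7 and 190.7 at stage 1.14, against 56.8, 65.5 and 55.8 at stage 1.05, and rose by 1.79 ± 0.24 (limma adjusted p = 0.000108). The stages did not overlap in either genotype. The other 3 probe sets that rose in SPH1 RNAi were 2 of AT4G17140, by 0.92 and 0.91 (limma adjusted p = 0.0175 and 0.0108), and ATG8F. The first of these was no longer called without replicate 3 of either stage in SPH1 RNAi (limma adjusted p = 0.0516 and 0.0642). ATG8F, AT4G16520, whose product is attached to autophagosome membranes, had 920.3, 854.2 and 707.0 in SPH1 RNAi at stage 1.14, against 480.0, 517.3 and 588.3 at stage 1.05. Its rise was 0.63 ± 0.14 in SPH1 RNAi (limma adjusted p = 0.0183, and 0.0643 without stage 1.05 replicate 1) and 1.37 ± 0.14 in Col-0 (limma adjusted p = 1.79e-05).

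Further members that rose in Col-0 at stage 1.14 included AT4G16770 by 1.52, AT4G17670 by 1.45, AT4G16710, a glycosyltransferase family 28 gene, by 1.30, AT4G17150 by 1.24 and AT4G16563 by 1.04. Their limma adjusted p-values ran up to 0.00131. Probe set 245434_at of AT4G17140 rose by 1.01 in Col-0 (limma adjusted p = 0.000806).

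Among the members that fell in Col-0 at stage 1.14 were the ribosomal protein genes. RPL15B fell by 1.70 on the log2 scale (limma adjusted p = 1.48e-05), CSLA01 by 1.53, RPL15A by 1.09 and the plastid-type L19 gene AT4G17560 by 1.03. RPL15B, RPL15A and AT4G17560 are the 3 ribosomal protein genes among the members, and 21% of all probe sets fell in Col-0. In SPH1 RNAi the changes of these 3 were -0.53, -0.38 and -0.36 (limma adjusted p = 0.0658, 0.112 and 0.249). The difference between the genotypes passed its own test for RPL15B, and not for RPL15A or AT4G17560 (limma adjusted p = 0.0819 and 0.196). AT4G17540 fell by 1.09, the arabinogalactan-protein gene AT4G16980 by 0.93 on 245318_at, AT4G17520 by 0.92 and the kinase gene AT4G16970 by 0.90. Apart from RPL15B, the limma adjusted p-values of these falls ran from 0.000101 to 0.0368. The calls of AT4G16980 and AT4G16970 were lost when several of the Col-0 arrays were left out in turn, with limma adjusted p up to 0.0848 and 0.137. They were also lost with no filter (0.0562 and 0.0664), that of AT4G16980 after quantile normalization (-0.59, limma adjusted p = 0.132) and that of AT4G16970 with an offset of 64 (-0.38, limma adjusted p = 0.0705).

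**Figure D4:**
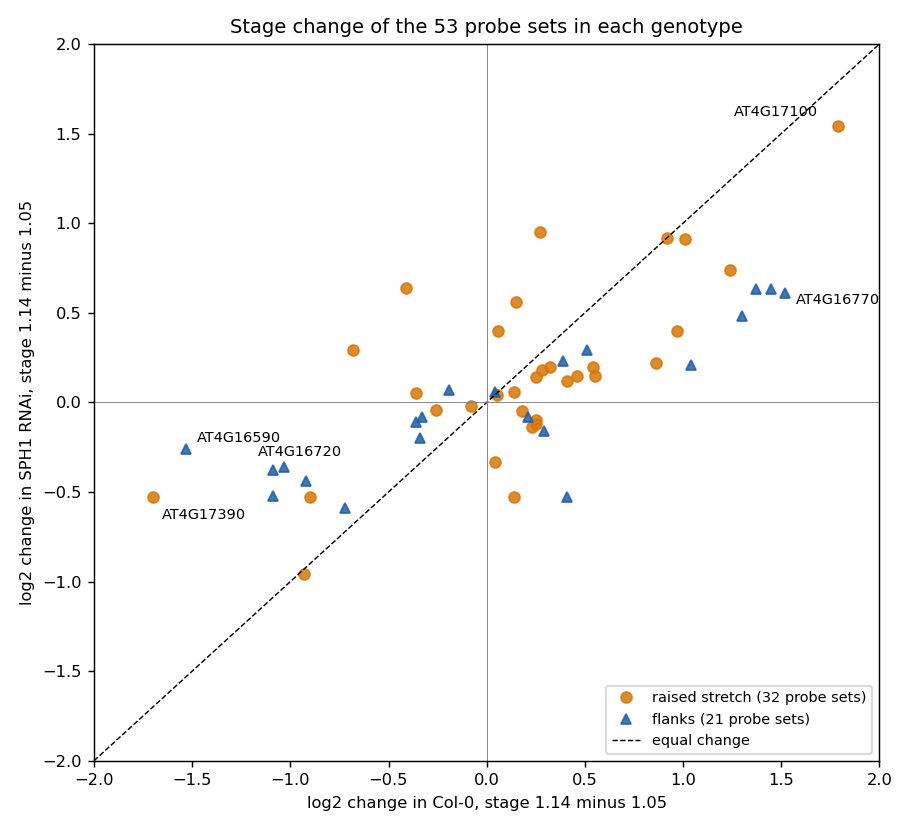
Log2 change from stage 1.05 to stage 1.14 of the 53 probe sets in SPH1 RNAi, on the vertical axis, against that in Col-0, on the horizontal axis, with the raised stretch and the flanks marked apart and a dashed line for equal change. AT4G17100 lies at the upper right in both genotypes, at 1.54 against 1.79, and RPL15B (AT4G17390) lies off the dashed line, at -0.53 against -1.70.

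Across the 32 probe sets of the stretch, the stage changes in SPH1 RNAi and in Col-0 correlated at r = 0.71 and rho = 0.61, and across the 21 of the flanks at r = 0.85 and rho = 0.80. These correlations run over probe sets that share arrays, and they are given as a description. Members with a higher signal at stage 1.14 in Col-0 tended to have one in SPH1 RNAi too.

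The test of whether the genotype difference itself changed between stages passed for 1 of the 53 probe sets, or 1.89%, against a background of 3.36%. An unadjusted limma p below 0.05 was found for 13 of the 53, against 2632 of all 13263 probe sets. The limits of the stretch were drawn from genotype differences, so these counts are not independent of that choice. The probe set that passed was RPL15B. Its genotype difference was larger at stage 1.14 than at stage 1.05 by 1.16 ± 0.24 on the log2 scale (limma adjusted p = 0.0271), and the arrays of the genotypes were apart at both stages. The call was lost without Col-0 stage 1.14 replicate 1 and without replicate 2 or 3 of either genotype at stage 1.05 (limma adjusted p of 0.0543 to 0.0756). By contrast, 4 members passed without SPH1 RNAi stage 1.14 replicate 1 and 3 without SPH1 RNAi stage 1.05 replicate 1. The share over all probe sets in those fits is not given here. RPL15A had a difference of 0.71 ± 0.21 in the same direction that did not pass (limma adjusted p = 0.0819). CSLA01 had the largest value of any member, 1.27 ± 0.34 (limma adjusted p = 0.0626). It passed with an offset of 64 (0.0447), array weights (0.0132), a replicate block (0.0159) and without SPH1 RNAi stage 1.14 replicate 1 (0.0355). The other 31 probe sets of the stretch did not pass, and their values ran from -0.67 to 1.05. Among them, AT4G16800 passed with array weights (0.0374) and without SPH1 RNAi stage 1.14 replicate 1 (0.022), and AT4G17080 with array weights (0.0203). In the flanks, ATG8F, AT4G16770, RPL15A and AT4G17560 passed with array weights too, with limma adjusted p of 0.00331 to 0.0396.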

How the data were processed

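Per array, the deposited table lists the linear intensity of 22810 probe sets, and these values were brought by the authors to a common level, as seen from the mean of 100.01 on every array after trimming 2% at each end. No label or header used here names the summarising software. Per the labels, average background ran from 68.54 to 136.50, and precision is limited by the number of arrays.

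After 64 control probe sets were left out, the 13263 with a mean signal of at least 32 were fitted on log2(signal + 16) with limma 3.58.1 (lmFit, eBayes with trend) in R 4.3.3, as 4 groups with 8 residual degrees of freedom. Stage contrasts and the interaction were tested two-sided with Benjamini-Hochberg adjustment over all 13263. The test was tried on simulated data. Genes were named from the platform's probe list, where 13513 probe sets have 1 gene, and the order of genes came from RefSeq TAIR10.1.

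Members, lists and alternatives were chosen with earlier results of these data known. Values per array were planned for the 8 largest differences in the raised stretch, 2 members at each edge and the receptor list. For the flanks these were the 4 next to each edge and the 3 largest in each direction, and for tests up to 8 members per direction. Other named genes were added for their role. Alternatives were other offsets, filters and normalization, array weights, a replicate block and leaving out each array. A planned motif search in promoters was not run, as no sequence was used here.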

Additional observations from a re-analysis of the deposited data

Results flagged for a closer look

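RPL15B, AT4G17390, stood out because its genotype difference was not the same at the 2 stages. The limits of the raised stretch were drawn from genotype differences, so this test is not independent of that choice. The difference between SPH1 RNAi and Col-0 was larger at stage 1.14 than at stage 1.05 by 1.16 on the log2 scale (limma adjusted p = 0.0271), and all 3 SPH1 RNAi arrays lay above all 3 Col-0 arrays at each stage. Over the alternatives the adjusted p ran from 0.0163 to 0.0756. It passed the threshold no more without the filter on low signal (0.0552), without Col-0 stage 1.14 replicate 1 (0.0543), without SPH1 RNAi stage 1.05 replicate 2 (0.0646) or 3 (0.0706), and without Col-0 stage 1.05 replicate 2 (0.0756) or 3 (0.056). Its paralogue RPL15A had 0.71 in the same direction and did not pass (limma adjusted p = 0.0819).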

How the results depend on the processing

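The median difference of the raised stretch stayed above 0 under every alternative run. The stretch was chosen on such differences from these same arrays, so this is no independent evidence and shows only how the size depends on the processing. At stage 1.14, 0.49 became 0.32 with an offset of 64, 0.58 with an offset of 4 and 0.42 after quantile normalization, and lay between 0.50 and 0.59 when each array was left out in turn. At stage 1.05, 0.55 became 0.40 with an offset of 64, 0.66 with an offset of 4 and 0.66 with a filter of 64, and lay between 0.53 and 0.64 with each array left out. Quantile normalization put the flanks at -0.01 and 0.00, and leaving out arrays gave -0.05 to 0.11 and -0.03 to 0.09. The count of stretch members above Col-0 at both stages was 15 after quantile normalization and 16 to 19 with each array left out, the 19 without SPH1 RNAi stage 1.14 replicate 1, alternatives chosen after seeing the data. Of the 4 members that changed with stage in SPH1 RNAi, array weights made 11, and leaving out arrays 3 to 7, the 7 without SPH1 RNAi stage 1.14 replicate 1 or 2. The 23 in Col-0 became 18 to 24 with each array left out. For the interaction, 1 member became 3 with an offset of 64, 0 with no filter, 8 with array weights and 0 to 4 with each array left out, the 4 without SPH1 RNAi stage 1.14 replicate 1. The shares over all probe sets under these alternatives, and with a replicate block, are not given here. A change particular to the members can thus not be read from these counts. The deviations of same-numbered arrays of the genotypes correlated at 0.49, 0.358 and -0.248 at stage 1.14 and 0.025, 0.148 and 0.222 at stage 1.05. Arrays of different number were not compared, so this check cannot decide whether the numbers pair them. A replicate block gave 4 members in SPH1 RNAi, 25 in Col-0 and 2 for the interaction. Over 960 combinations of a named genotype difference and an alternative, 38, on 29 of 90 differences, moved by more than the replicate spread. Of 21 named calls, 5 were lost under at least 1 alternative, in 22 of 394 combinations, with 0 reversed. The rise of 245433_at (AT4G17140) in SPH1 RNAi was lost without replicate 3 of SPH1 RNAi at stage 1.14 (adjusted p = 0.0516) or at stage 1.05 (0.0642), and that of ATG8F without SPH1 RNAi stage 1.05 replicate 1 (0.0643). The cause of these shifts was not tested. Signals near background and 3 arrays per group limit what could be seen.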
